A study of Mus musculus with 4 samples.

Results

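The genes described here are 8 that CD8 T cells use to build and release cytotoxic granules: the granzymes Gzma, Gzmb, Gzmk and Gzmm, the pore-forming protein Prf1 (perforin), and the granule proteins Srgn, Nkg7 and Lamp1. They were chosen by name from the deposited gene list, where all 8 were found among 27998 genes. Their raw UMIs (unique molecular identifiers, 1 per captured transcript) were read in every cell in which 500 genes or more were seen and no more than 10% of UMIs were mitochondrial. The cells were splenocytes of 2 mixed chimeras, Rag1-/- mice that had been irradiated sub-lethally and given WT (CD45.1) and Bcl3-/- (CD45.2) bone marrow on the C57BL/6 background. On day 8 after infection with LCMV Armstrong, CD8 T cells that bound the H-2Db-GP33 tetramer were sorted by CD45 allele. Each chimera gave 1 WT and 1 Bcl3-/- library, so that n = 2 libraries per genotype, with the library name giving the genotype and the number of the chimera (WT1, KO1, WT2, KO2). The Bcl3-/- cells lacked the gene in every marrow-derived lineage and not only in T cells, and the recipients kept their own cells of lineages that do not need Rag1. The genotype and the CD45 allele went together in both chimeras, so an effect of Bcl3 and one of the congenic background cannot be told apart.

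WT1 kept 4941 cells after filtering and WT2 8092, while KO1 kept 5366 and KO2 6494. The median cell held 3571 UMIs in WT1 and 3620.5 in KO1, but 2019 in WT2 and 2948 in KO2, so WT2 was the shallowest per cell. Bcl3, which codes for an atypical member of the inhibitor-of-κB family, had 29.3 CPM (UMIs of a gene relative to all UMIs of the same cells, scaled to 1e+06) in the T cell clusters of WT1 and 21.5 CPM in those of KO1. It had 107.7 CPM in WT2 and 84.6 CPM in KO2, so its level differed more between the chimeras than between the genotypes. The sources used here do not say which exons were deleted, so reads from the 3′ end could not serve as a check of the genotype, which rests on the sort alone. Between 37 and 63 cell barcodes were shared by a pair of libraries, with 36.0 to 71.3 expected by chance for the same pairs.

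The cells of each library were clustered without the 8 genes, so that their own levels did not shape the clusters. Clusters were then named from marker lists. The terminal effector-like class, named from Zeb2, Cx3cr1, Tbx21, Klrg1, S1pr5 and S1pr1, held 1029 cells of WT1, 1166 of WT2, 1037 of KO1 and 1179 of KO2. These near-equal sizes depended on the clustering: with 30 principal components in place of 15 the class held 246 and 359 cells in WT1 and WT2 and 875 and 916 in KO1 and KO2. A class led by Tcf7, Ccr7, Dapl1 and Id3, called Tcf7-Ccr7 here, held 281, 431, 139 and 184 cells in the same order. It matched the precursor list best in 3 libraries and the naive list best in KO1, and so was given no cell type. The cycling class held 802, 1040, 405 and 798 cells and the interferon-stimulated class 455, 325, 371 and 356. The latter also depended on the clustering, with 139 and 301 cells in WT1 and WT2 and 126 and 137 in KO1 and KO2 with 30 components. The largest class, the T cell clusters that no list named, held 2058, 4760, 3000 and 3537 cells. B-like clusters of 105, 119, 134 and 126 cells also passed the sort.

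The sorted identity was checked against its defining markers. In the T cell clusters, Cd3e had 507.6 and 431.5 CPM in WT1 and WT2 and 851.8 and 983.2 CPM in KO1 and KO2, and Cd8b1 had 2025 and 1831 CPM against 2152 and 2194 CPM. Cd4 stayed at 1.80 to 2.90 CPM in all 4 libraries. In the Tcf7-Ccr7 class Cd4 reached 19.8 to 42.8 CPM, the highest in KO1, where it stood among the 10 leading genes of the cluster. The terminal effector-like class shares genes with natural killer (NK) cells, which fill their granules with the same proteins. There the 7 NK markers summed to 212.5 and 576.8 CPM in WT1 and WT2 and to 376.0 and 289.4 CPM in KO1 and KO2, none of them at 0, with Fcer1g the most abundant in the WT libraries and Klre1 in the Bcl3-/- libraries. Ncr1, the most specific of them, had 1.18 to 2.88 CPM, while Cd3e and Cd8b1 in that class were at 453.3 to 1014 CPM and 1850.1 to 2410 CPM. When cells above 2 times the median UMIs were left out and the rest clustered again, WT2 gave a cluster of 553 cells that the NK list named, and its terminal effector-like class held 543 cells in place of 1166.

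Cytotoxic T cells kill by releasing granules towards a bound target cell. Perforin opens the target's membrane, and granzymes, which are serine proteases, enter and cut proteins inside it. Granzyme B cuts after aspartate and starts the caspase cascade, granzymes A and K cut after arginine or lysine, and granzyme M prefers methionine or leucine. Srgn codes for serglycin, the proteoglycan core on which granule proteases are packed. Nkg7 codes for a granule membrane protein that is needed for efficient release. Lamp1 codes for a lysosomal membrane protein (CD107a) that appears on the cell surface when granules fuse with it. After infection, effector CD8 T cells hold granzymes and perforin at high levels, and cells with precursor or naive features hold less.

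All 8 genes are protein coding, and their positions are given on GRCm38 with the GENCODE M21 annotation. Gzma (ENSMUSG00000023132, 5 exons) lies on the minus strand of chr13:113093825-113100981, and Gzmk (ENSMUSG00000042385, 5 exons) on the same strand at chr13:113171608-113225908, a gap of 70.6 kb. Gzmb (ENSMUSG00000015437, 5 exons, minus strand) is at chr14:56258838-56262260, at the end of a run of granzyme genes that also holds Gzme, Gzmd, Gzmg, Gzmn, Gzmf and Gzmc. Chromosome 10 carries Prf1 (ENSMUSG00000037202, 2 exons, plus strand) at chr10:61297833-61304680, Srgn (ENSMUSG00000020077, 3 exons, minus strand) at chr10:62493833-62527451, and Gzmm (ENSMUSG00000054206, 5 exons, plus strand) at chr10:79689020-79695261. Nkg7 (ENSMUSG00000004612, 4 exons, plus strand) is at chr7:43437073-43438249 and Lamp1 (ENSMUSG00000031447, 9 exons, plus strand) at chr8:13159161-13175338. Gzmk overlaps Esm1 and Lamp1 overlaps Grtp1, each on the opposite strand. Of the read-length windows of 98 bases in the last 500 bases of their transcripts, 0 were shared with another gene for any of the 8, so reads of the related granzymes could be told apart.

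The upstream sequences of the genes on which the genotype comparison turned, Gzma and Prf1, are shown beside that of Gzmb, with which Gzma is compared cell by cell further on. Each is 250 bases that end just before the start of the gene in RefSeq (GRCm38.p6), which for Gzmb lies upstream of the GENCODE start given above and for Prf1 just inside it, written 5′ to 3′ on the strand of the gene, from chr13:113100982-113101231 for Gzma, chr14:56262335-56262584 for Gzmb and chr10:61297586-61297835 for Prf1. Capitals mark matches to short core motifs of factors known to act at granule genes.
Gzma: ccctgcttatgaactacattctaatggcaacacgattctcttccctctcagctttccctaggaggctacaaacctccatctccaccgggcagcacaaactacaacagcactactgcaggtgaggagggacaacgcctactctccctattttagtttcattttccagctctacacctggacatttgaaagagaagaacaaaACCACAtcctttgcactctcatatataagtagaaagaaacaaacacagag
Gzmb: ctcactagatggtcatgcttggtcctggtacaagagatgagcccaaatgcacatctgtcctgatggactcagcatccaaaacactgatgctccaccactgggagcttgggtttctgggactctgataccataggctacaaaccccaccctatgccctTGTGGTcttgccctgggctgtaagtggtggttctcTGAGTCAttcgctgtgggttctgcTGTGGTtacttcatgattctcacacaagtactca
Prf1: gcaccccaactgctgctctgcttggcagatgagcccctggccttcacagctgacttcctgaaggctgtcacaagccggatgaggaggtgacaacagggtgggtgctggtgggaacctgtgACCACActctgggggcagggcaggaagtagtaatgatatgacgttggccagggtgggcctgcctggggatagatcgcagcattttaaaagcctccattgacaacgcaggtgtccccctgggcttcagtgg
The motifs searched on both strands were a T-box core (GGTGTGA), a RUNX core (TGTGGT), an AP-1 site (TGANTCA) and the κB site, of which none holds another. In Gzma the capitals are 1 RUNX match that begins 50 bases before the start. In Prf1 they are 1 RUNX match, 130 bases before the start. In Gzmb they are RUNX matches 93 and 34 bases before the start and 1 AP-1 match 58 bases before it. Over the upstream stretches of all 8 genes, a RUNX match was present in 7 genes, a T-box match in 3, and an AP-1 and a κB match in 1 each. Gzmm and Srgn had 2 such stretches each, from 2 start sites, and the T-box match of Gzmm lay at the second. These counts are per gene, and the shares that follow are per stretch. Of 32817 upstream stretches of the same length in the RefSeq table, 14.0% held the RUNX core, 3.33% the T-box core, 6.75% the AP-1 site and 7.25% the κB site. A match describes letters in the window and is not a measured binding site.

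Across the T cell classes the 8 genes fell into distinct patterns, which are described here without a test, since the classes come from the same libraries. Gzma varied most. It had 2276 CPM in the terminal effector-like class of WT1, 4126 in that of WT2, 6947 in that of KO1 and 7724 in that of KO2. Every one of these was above each value of every other class. The cycling class followed with a mean of 1458 ± 313.2 CPM (SD, n = 4 libraries), then the unnamed T cell clusters with 786.4 ± 125.6, the interferon-stimulated class with 471.7 ± 102.7 and the Tcf7-Ccr7 class with 237.2 ± 78.3. No neighbours in that order overlapped between libraries. Without cells above 2 times the median UMIs, however, the unnamed clusters no longer lay above the interferon-stimulated class, with a mean log2 ratio of the latter to the former of 0.012 in place of −0.75. The terminal effector-like class held 41.0% and 38.4% of all Gzma UMIs of the T cell clusters in WT1 and WT2 and 62.7% and 61.2% in KO1 and KO2. The same class held 12.7% to 18.4% of all UMIs of those clusters.

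Gzmb, the granzyme best known for starting apoptosis, was spread far more evenly. Its mean was 2134 ± 341.3 CPM in the interferon-stimulated class, 1891 ± 117.2 in the cycling class, 1836 ± 303.7 in the terminal effector-like class and 1608 ± 137.3 in the unnamed T cell clusters (SD, n = 4 libraries each). The ranges of each of these neighbours overlapped. The Tcf7-Ccr7 class stood apart at 351.5 ± 146.4 CPM, from 176.1 CPM in KO2 to 516.6 CPM in KO1. Gzmk was also highest in the interferon-stimulated and lowest in the Tcf7-Ccr7 class, with 274.3 ± 51.0 CPM in the former and 91.0 ± 40.9 CPM in the latter. Relative to the unnamed T cell clusters, the mean log2 ratio of the interferon-stimulated class was 0.40 for Gzmb and 0.37 for Gzmk. With 30 components, which made that class smaller, the ratios were 0.49 and 0.15. Gzmm, by contrast, had overlapping ranges in every class, with means between 40.2 ± 6.59 CPM in cycling cells and 52.9 ± 7.69 CPM in the Tcf7-Ccr7 class.

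Prf1 was sparse. Its highest mean was in the terminal effector-like class, 41.9 ± 23.5 CPM, and its lowest in the Tcf7-Ccr7 class, 12.2 ± 5.95 CPM (SD, n = 4 libraries). The wide spread of the former came from the genotypes, which are compared below. Nkg7 was among the 42 genes with the most UMIs in the T cell clusters of every library. It was highest in the terminal effector-like class (4542 ± 303.7 CPM) and lowest in the Tcf7-Ccr7 class (2492 ± 258.5 CPM). Lamp1 ran the other way, with its highest mean in the Tcf7-Ccr7 class (193.8 ± 8.61 CPM) and its lowest in cycling cells (112.2 ± 4.23 CPM), and neither range overlapped that of a neighbour. Srgn had overlapping ranges for all neighbours, from 641.0 ± 60.3 CPM in the Tcf7-Ccr7 class to 759.3 ± 102.3 CPM in the interferon-stimulated class. Among the clusters inside the unnamed class, Gzma still ran from 410.0 to 1468 CPM in WT1.

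**Figure D1:**
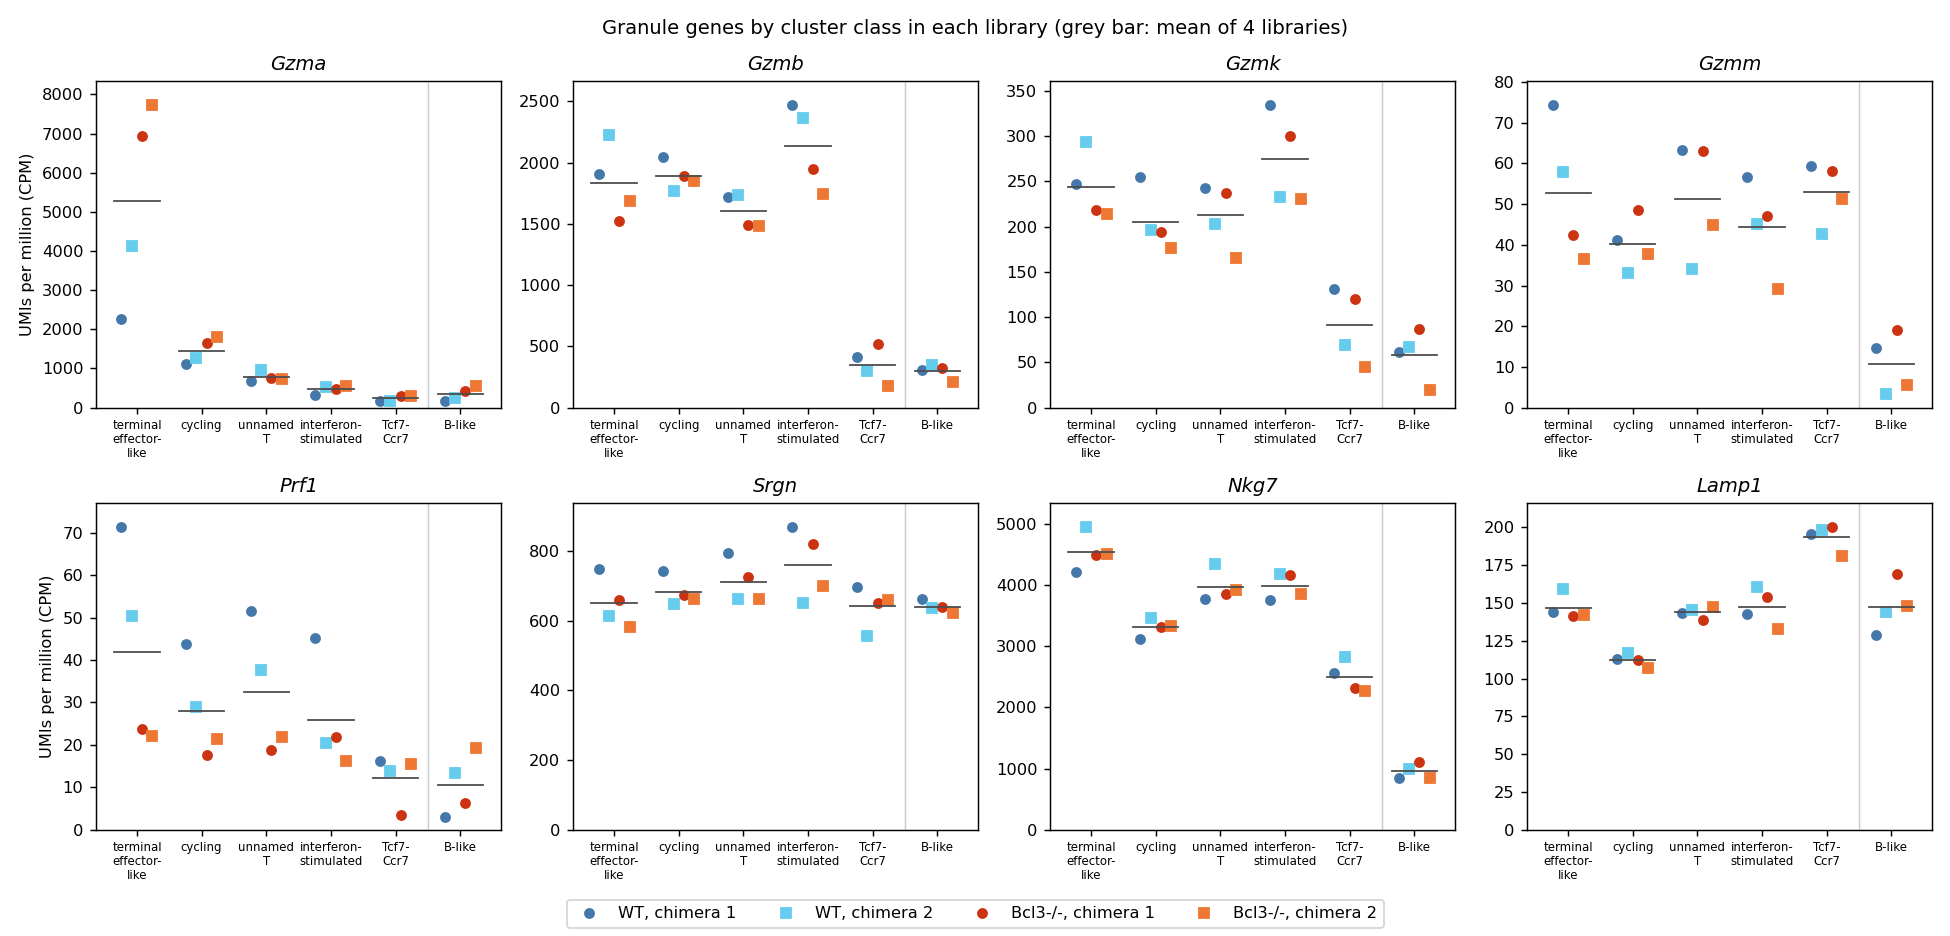
Each panel gives 1 gene, with the level in CPM on the vertical axis and the cluster classes on the horizontal axis, 1 point per library and a bar at the mean of 4 libraries. Gzma stands highest in the terminal effector-like class, where KO1 and KO2 (6947 and 7724 CPM) lie above WT1 and WT2 (2276 and 4126 CPM), and Lamp1 is highest in the Tcf7-Ccr7 class.

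RNA that leaks from broken cells enters every droplet, so the B-like clusters were used as a measure of it. Granzymes and perforin are not made by B cells as a rule, yet B-like clusters held Gzma at 163.7 and 251.1 CPM (WT1 and WT2) and at 424.9 and 548.3 CPM (KO1 and KO2). These values follow the level of Gzma in the same libraries' droplets of 1 to 50 UMIs, which was 894.0 and 1121 CPM in WT1 and WT2 and 1765 and 1827 CPM in KO1 and KO2. The B-like level was 20.9% ± 4.83 of the T cell level for Gzma and 17.9% ± 3.48 for Gzmb. It was 26.4% ± 11.6 for Gzmk, 20.2% ± 11.3 for Gzmm and 24.5% ± 2.80 for Nkg7 (SD, n = 4 libraries). The T cell genes Cd3e (21.1% ± 3.50), Cd8a (19.6% ± 2.57), Cd3d (27.6% ± 4.15) and Cd8b1 (27.0% ± 4.07) gave like shares. The Gzma, Gzmb and Nkg7 counts in B-like cells are therefore read as background, and whether free RNA alone gave them was not tested. Gzmm rested on 5, 1, 9 and 2 UMIs in the B-like cells of WT1, WT2, KO1 and KO2 and Gzmk on 7 in those of KO2, too few for more than a coarse value.

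For Prf1 the background could likewise be measured only coarsely, since B-like cells held 1, 4, 3 and 7 UMIs of it in WT1, WT2, KO1 and KO2. These gave 2.92, 13.4, 6.34 and 19.2 CPM, with exact Poisson 95% intervals from 0.0740 to 16.3 CPM in WT1 and from 7.72 to 39.5 CPM in KO2, which cover counting error only. KO2 thus had 19.2 CPM in B-like cells and 21.2 CPM in T cell clusters, so that the Prf1 signal of that library could hardly be set apart from the background at this depth. Droplets of 1 to 50 UMIs held Prf1 at 30.6 and 22.8 CPM in WT1 and WT2 and at 7.02 and 14.6 CPM in KO1 and KO2. Each was below the T cell level of its library, on 23, 14, 7 and 14 UMIs in the same order. Srgn and Lamp1 had 92.3% ± 5.65 and 105.1% ± 12.6 of the T cell level in B-like cells. This is well above the shares of the T cell genes, so B-like cells are no background for these 2 genes. Both are also made outside the cytotoxic lineages. Gzma in the Tcf7-Ccr7 class (157.6 and 182.5 CPM in WT1 and WT2, 304.5 and 304.3 CPM in KO1 and KO2) lay below the B-like level of each library and is read as background. Gzmb there had 412.4 and 516.6 CPM in WT1 and KO1, above the B-like 309.8 and 327.6 CPM, and 300.9 and 176.1 CPM in WT2 and KO2, below the B-like 351.6 and 208.4 CPM.

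Whether loss of Bcl3 alters these genes was first asked over all T cell clusters of a library. Of the 8 genes, 0 were called by edgeR's quasi-likelihood test at an adjusted p of 0.05, against 0.288% of the 11109 genes tested, and 2 (Gzma and Prf1) had an unadjusted p under 0.05, against 14.3%. Because WT and Bcl3-/- cells of a chimera shared the animal, the same test was run with chimera as a replicate block. The spread in that fit is in part pooled over genes. Its small p-values and standard errors therefore do not measure how a given gene varied between the 2 chimeras. The blocked fit called 3 of the 8, Gzma higher and Prf1 and Gzmb lower, against 13.7% of all genes tested. DESeq2 without the block called Gzma and Prf1, against 1.55% of all genes. Over all cells 0 of the 8 were called (background 0.363%) and with the block the same 2 were (background 9.65%).

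Gzma had 1020.3 and 1372 CPM in the T cell clusters of WT1 and WT2 and 1912 and 2027 CPM in those of KO1 and KO2. Both Bcl3-/- libraries lay above both WT libraries. The log2 difference was 0.91 in chimera 1 and 0.56 in chimera 2. On the log2 scale Gzma was higher in Bcl3-/- than in WT cells by 0.71 (standard error 0.15, adjusted p = 0.135 from edgeR), and with the replicate block 0.73 (standard error 0.08, adjusted p = 1.86e-10). Free Gzma RNA was higher in the same 2 libraries, as given above, and its part in the difference was not tested. With each class, as drawn with 15 components, given the same weight in all libraries, a calculation added after the values were seen, the mean log2 difference was 0.71, against 0.73 as measured.

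Prf1 had 50.5 and 35.5 CPM in WT1 and WT2 (932 and 624 UMIs) and 19.2 and 21.2 CPM in KO1 and KO2 (381 and 413 UMIs). The WT libraries did not overlap the Bcl3-/- libraries, and the log2 difference was −1.39 in chimera 1 and −0.74 in chimera 2. The log2 fold change was −1.10 (standard error 0.18, adjusted p = 0.0757 from edgeR), and with the block −1.08 (standard error 0.11, adjusted p = 6.73e-11). It was −0.80 without WT1 (adjusted p = 0.0563), −1.36 without WT2 (adjusted p = 0.0118), −1.08 without KO1 (adjusted p = 0.0347) and −1.13 without KO2 (adjusted p = 0.0517), where the lone library of a genotype is taken to vary like the others. With the classes weighted equally the mean log2 difference was −1.10, against −1.07 as measured.

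Gzmb had 1830.1 and 1754 CPM in WT1 and WT2 and 1554 and 1561 CPM in KO1 and KO2, again with no overlap but with a small difference (log2 fold change −0.21, standard error 0.11, adjusted p = 0.449 from edgeR, with the block 0.0416). The other 5 genes were not called with or without the block. Their log2 fold changes were −0.18 for Gzmk (standard error 0.17), 0.012 for Gzmm (0.24), −0.068 for Srgn (0.14), −0.012 for Nkg7 (0.13) and −0.037 for Lamp1 (0.089). Gzmm differed between the chimeras and not by genotype, with 58.8 and 56.3 CPM in WT1 and KO1 and 37.8 and 41.5 CPM in WT2 and KO2. Nkg7 had 3614 and 4154 CPM in WT1 and WT2 and 3877 and 3855 CPM in KO1 and KO2, and Lamp1 138.5 to 144.9 CPM in all 4 libraries.

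Within the terminal effector-like class, Prf1 fell in Bcl3-/- cells. It had 71.3 and 50.4 CPM in WT1 and WT2 (242 and 113 UMIs) and 23.7 and 22.1 CPM in KO1 and KO2 (81 and 69 UMIs), so that the genotypes did not overlap. On the log2 scale the change was −1.43 (standard error 0.20, adjusted p = 0.0101 from edgeR). Prf1 was the only 1 of the 8 called there without the block, against 0.933% of the 8896 genes tested, and it was called in every alternative run for this class. With the replicate block 5 of the 8 were called, against 8.85% of all genes: Gzma higher, and Prf1, Gzmm, Gzmb and Gzmk lower.

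Gzma in this class had the values given above, 2276 and 4126 CPM in WT1 and WT2 against 6947 and 7724 CPM in KO1 and KO2, with no overlap. The log2 fold change was 1.20 (standard error 0.26, adjusted p = 0.0737 from edgeR), and with the block, whose spread is in part pooled over genes, 1.26 (standard error 0.10, adjusted p = 2.49e-32). It was 0.85 without WT1 (adjusted p = 0.0355), 1.65 without WT2 (adjusted p = 3.15e-06), 1.23 without KO1 (adjusted p = 0.0354) and 1.17 without KO2 (adjusted p = 0.0750). The size depended on how the class was drawn: it was 0.59 with the 8 genes kept among the genes used for clustering (adjusted p = 0.313) and 0.43 with cells assigned 1 by 1 from marker UMIs (adjusted p = 0.443). In KO1 the class was made of 2 clusters, 1 with 9269 CPM of Gzma and 1 with 3630 CPM (the latter named by a clause added after the values were seen), and without the smaller cluster the log2 fold change was 1.42 (adjusted p = 0.0494).

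The markers that named the class differed in the same direction. Zeb2 had 103.8 and 114.7 CPM in the class in WT1 and WT2 and 237.7 and 262.8 CPM in KO1 and KO2. Cx3cr1 had 102.6 and 110.2 CPM against 275.2 and 245.8 CPM, and Klrg1 had 334.2 and 442.1 CPM against 581.3 and 584.0 CPM. With 30 principal components, an alternative of the same kind that was fitted after the values were seen, the class was smaller in WT1 and WT2 (246 and 359 cells), and neither the markers nor Gzma separated the genotypes. Zeb2 then had 287.5 and 350.1 CPM in WT1 and WT2 and 265.7 and 298.7 CPM in KO1 and KO2. Gzma had 6396 and 10854 CPM in WT1 and WT2 and 7818.5 and 8691 CPM in KO1 and KO2, a log2 fold change of −0.075 (adjusted p = 0.964). Without cells above 2 times the median UMIs it was 0.22 (adjusted p = 0.917), with 3615 and 9351 CPM in WT1 and WT2 against 6235 and 9041 CPM. The higher Gzma of the Bcl3-/- class is thus not a stable result: more cells of the state and more Gzma per cell of it cannot be told apart here. Prf1, by contrast, was called with 30 components (−1.14, adjusted p = 0.0364) and without the cells of many UMIs (−1.32, adjusted p = 0.0295). Prf1 was the only one of the 8 genes called with 30 components, without those cells or with classes from marker UMIs. The total numbers of genes called in these fits are given below, under the dependence on processing. Of the 3 granzymes besides Gzma, 0 were called in this class without the block. Gzmm had 74.3 and 58.0 CPM in WT1 and WT2 and 42.4 and 36.5 CPM in KO1 and KO2 (log2 fold change −0.75, standard error 0.18, adjusted p = 0.0987 from edgeR, with the block 2.30e-05). It was called without WT2 (−0.94, adjusted p = 4.31e-06) and without KO1 (−0.92, adjusted p = 0.0181), but not without WT1 (−0.53, adjusted p = 0.117) or without KO2 (−0.61, adjusted p = 0.229). Nor was it called with 30 components (−0.78, adjusted p = 0.318), and with classes from marker UMIs it was at −0.10 (adjusted p = 0.893). Gzmb gave −0.36 (adjusted p = 0.349, with the block 0.00242) and Gzmk −0.32 (adjusted p = 0.332, with the block 0.0199). With 30 components these were −0.15 and −0.072. Srgn (−0.13), Nkg7 (−0.021) and Lamp1 (−0.093) were not called with or without the block.

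In the unnamed T cell clusters the genotypes overlapped for Gzma but not for Prf1. This class was made of different clusters in each library. Il7r was among the 10 leading genes of an unnamed cluster in WT1, KO1 and KO2 (744, 775 and 1043 cells), but not in WT2. Tcf7 was also among them in KO1 and KO2. These clusters had 410.0, 473.0 and 600.2 CPM of Gzma in WT1, KO1 and KO2. Prf1 had 51.5 and 37.6 CPM in WT1 and WT2 and 18.8 and 21.8 CPM in KO1 and KO2 (log2 fold change −1.15, standard error 0.17, adjusted p = 0.0860 from edgeR, with the block 0.0424). It was called without WT2 (−1.41, adjusted p = 0.0130) and without KO2 (−1.22, adjusted p = 0.0459). Gzma had 676.1 and 965.7 CPM against 769.8 and 734.0 CPM, so that the genotypes overlapped (log2 fold change −0.14, standard error 0.17, adjusted p = 0.797). Without cells above 2 times the median UMIs it was 0.43 (adjusted p = 0.512). Of the 8 genes, 0 were called there without the block and 1 with it (background 0.213% and 0.871%).

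Cycling cells gave a log2 difference of 0.48 for Gzma (standard error 0.14, adjusted p = 0.274, with the block 0.00139) and of −0.95 for Prf1 (standard error 0.23, adjusted p = 0.181, with the block 0.00287). Without the block 0 of the 8 were called and with it these 2, against 0.387% and 2.88% of all genes. Prf1 was called there without WT2 (−1.23, adjusted p = 0.0253). In the interferon-stimulated class 0 were called without the block (background 0.123%), and with it 1, Gzmb at −0.41 (adjusted p = 0.0144, background 1.25%), which was not fitted with 30 components. Prf1 was not called in that class with or without the block. It had 45.3 and 20.4 CPM in WT1 and WT2 and 21.8 and 16.3 CPM in KO1 and KO2, so that the genotypes overlapped. Its log2 fold change there was −1.26 without WT2.

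In the Tcf7-Ccr7 class Gzma was called, at 0.86 on the log2 scale (standard error 0.17, adjusted p = 0.0121 from edgeR, with the block 0.0487). It was the only 1 of the 8, against 0.689% of the genes tested and 0.407% with the block. Its level there was below that of the B-like clusters in each library, however, and in those clusters Gzma was also higher in KO1 and KO2. It was not called without WT1 (0.80, adjusted p = 0.111) or with cells assigned from marker UMIs (0.078, adjusted p = 0.913). Gzmb there gave −0.011, but −1.07 without KO1, the library with Cd4 among the leading genes of this cluster. Gzmk there had 130.6 and 69.4 CPM in WT1 and WT2 and 119.7 and 44.5 CPM in KO1 and KO2, and so was also lowest in KO2. Prf1 there had 16.2 and 13.9 CPM in WT1 and WT2 and 3.42 and 15.4 CPM in KO1 and KO2. The genotypes thus overlapped for Prf1, with only KO1 below both WT libraries.

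**Figure D2:**
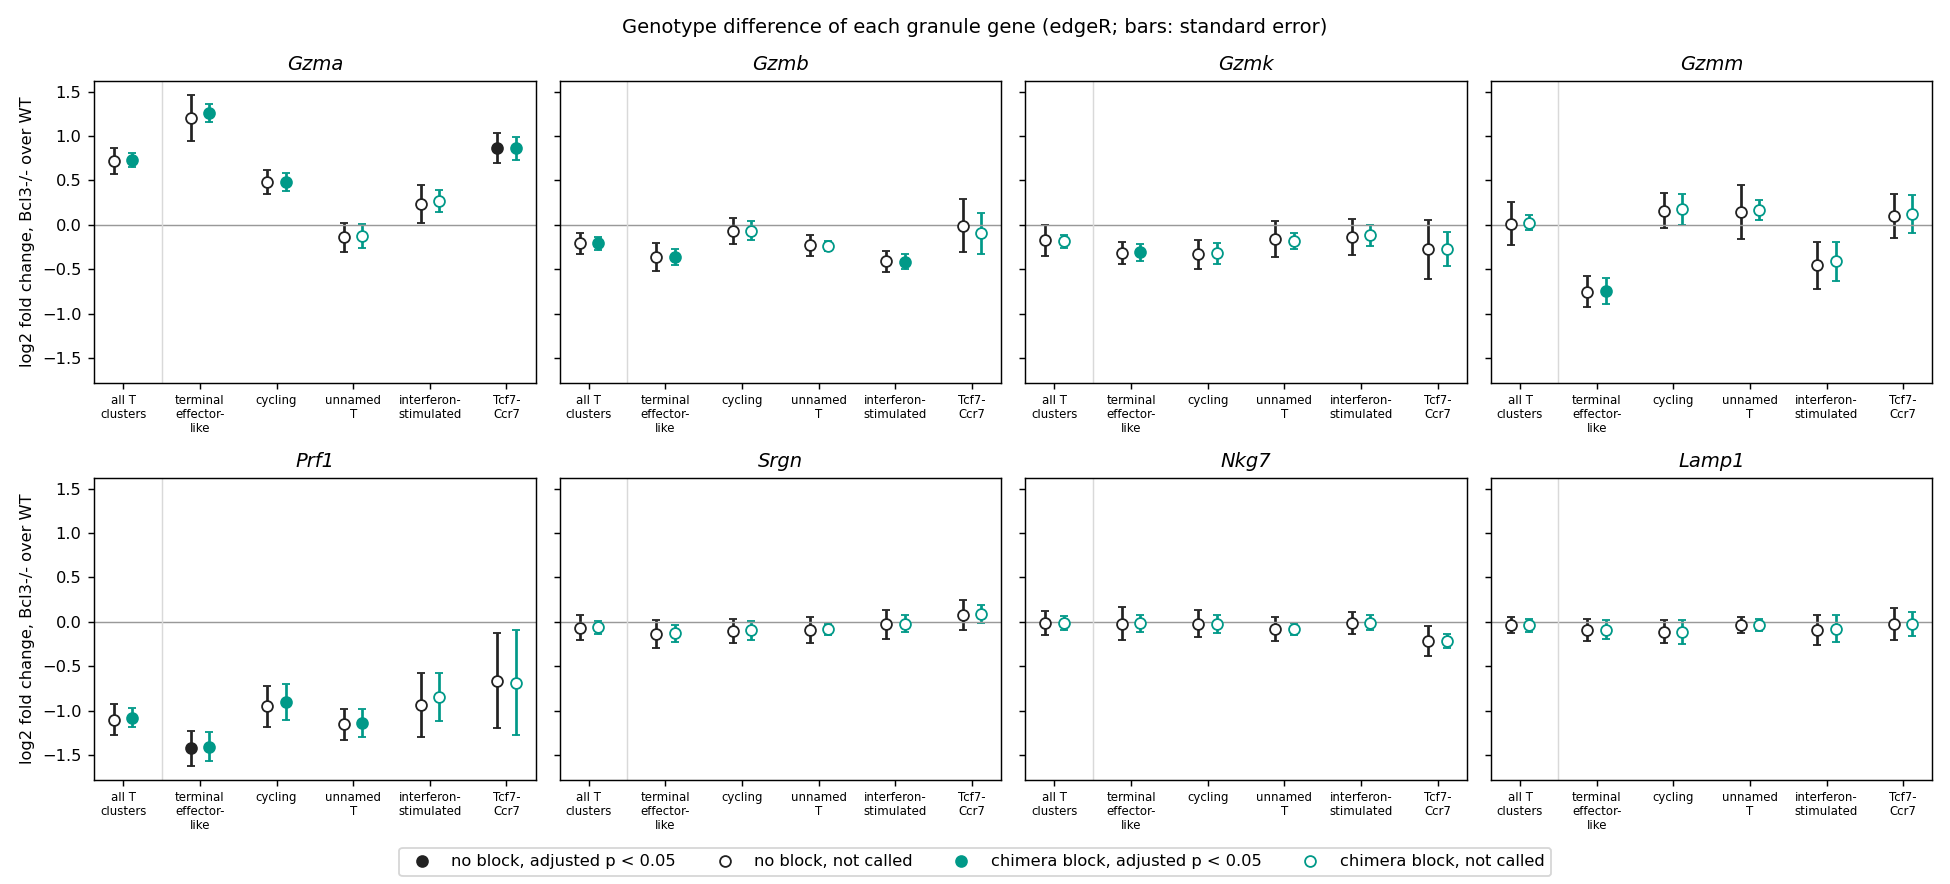
Each panel gives 1 gene, with the fold change (log2, Bcl3-/- relative to WT, from edgeR) on the vertical axis and the T cell classes on the horizontal axis, where bars are standard errors, colours mark fits without and with chimera as a block, and filled points have an adjusted p under 0.05. Prf1 lies below 0 in every class and reaches −1.43 in the terminal effector-like class, whereas Gzma lies at 1.20 there (−0.075 when the class is drawn with 30 components) and at −0.14 in the unnamed T cell clusters. In CPM the genotypes overlapped for Prf1 in the interferon-stimulated and Tcf7-Ccr7 classes.

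Whether the Gzma difference itself depended on the class was tested by the interaction of genotype and class, with library as a term. The make-up of the unnamed T cell clusters, the reference here, differed between libraries, as given above. Relative to the unnamed T cell clusters, the log2 difference in the terminal effector-like class was larger by 1.36 (standard error 0.12, adjusted p = 3.39e-09 from edgeR). It ranged from 1.20 to 1.55 with each library left out and was called each time. With the 8 genes kept for clustering it was 0.77 (adjusted p = 5.19e-06), and with cells assigned from marker UMIs 0.42 (adjusted p = 5.75e-08). It was lost with 30 components (−0.085, adjusted p = 1) and without cells above 2 times the median UMIs (−0.13, adjusted p = 0.999), so it held only for classes drawn in some ways. For Gzmm the interaction was −0.89 (standard error 0.16, adjusted p = 0.00112). It was −0.72 without KO1 (adjusted p = 0.161), −0.80 with 30 components (adjusted p = 0.806) and −0.19 with marker UMIs (adjusted p = 0.989). No other gene of the 8 was called in this term, which called 0.996% of the 9841 genes tested. For Gzma in the cycling and Tcf7-Ccr7 classes the interaction was 0.58 (adjusted p = 0.0653) and 0.96 (adjusted p = 0.0867). Both were called with the 8 genes kept for clustering (0.67 and 1.03, adjusted p = 0.000358 and 0.00458) and neither without the added naming clause (0.33 and 0.71, adjusted p = 1 and 0.811) or with 30 components (0.29 and 0.71, adjusted p = 0.981 and 0.426).

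The share of cells with a UMI was compared after each cell was thinned to 1000 UMIs, which left out 20 T cells of WT1, 210 of WT2, 5 of KO1 and 13 of KO2. In the T cell clusters Gzma was seen in 25.9% of WT1, 30.2% of WT2, 36.8% of KO1 and 33.9% of KO2 cells. The Bcl3-/- libraries were higher by 7.28 percentage points, with no overlap between the genotypes, and p was 0.33 by exact permutation (2-sided), which is as low as 2 libraries a side can reach. In B-like cells, which had a median of 1974 to 2901 UMIs before thinning against 1904.5 to 3251 in the terminal effector-like class, the share was 14.3%, 12.6%, 20.9% and 20.6%. Unthinned, the difference was 13.3 percentage points. Within the terminal effector-like class the share was 34.8% and 48.0% in WT1 and WT2 and 63.2% and 67.7% in KO1 and KO2, above this background in each library.

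Prf1 was seen in 4.76% of WT1, 3.19% of WT2, 2.12% of KO1 and 1.99% of KO2 cells of the T cell clusters (exact permutation p = 0.33). The share in B-like cells was 0 of 105 cells in WT1, which allows up to 2.86% (3 counts of the total), and 1.80%, 1.49% and 0.794% in WT2, KO1 and KO2. The exact 95% intervals of the B-like shares of the other libraries reached 6.36% for WT2 and 5.29% and 4.34% for KO1 and KO2. The T cell share of WT1 lay above the limit of its own library, and those of WT2, KO1 and KO2 lay inside theirs and could not be set apart from the background. Gzmb was seen in 73.1% and 71.4% of WT1 and WT2 cells and in 70.1% and 67.4% of KO1 and KO2 cells, and Nkg7 in 95.8% to 97.1% of cells in all 4 libraries.

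**Figure D3:**
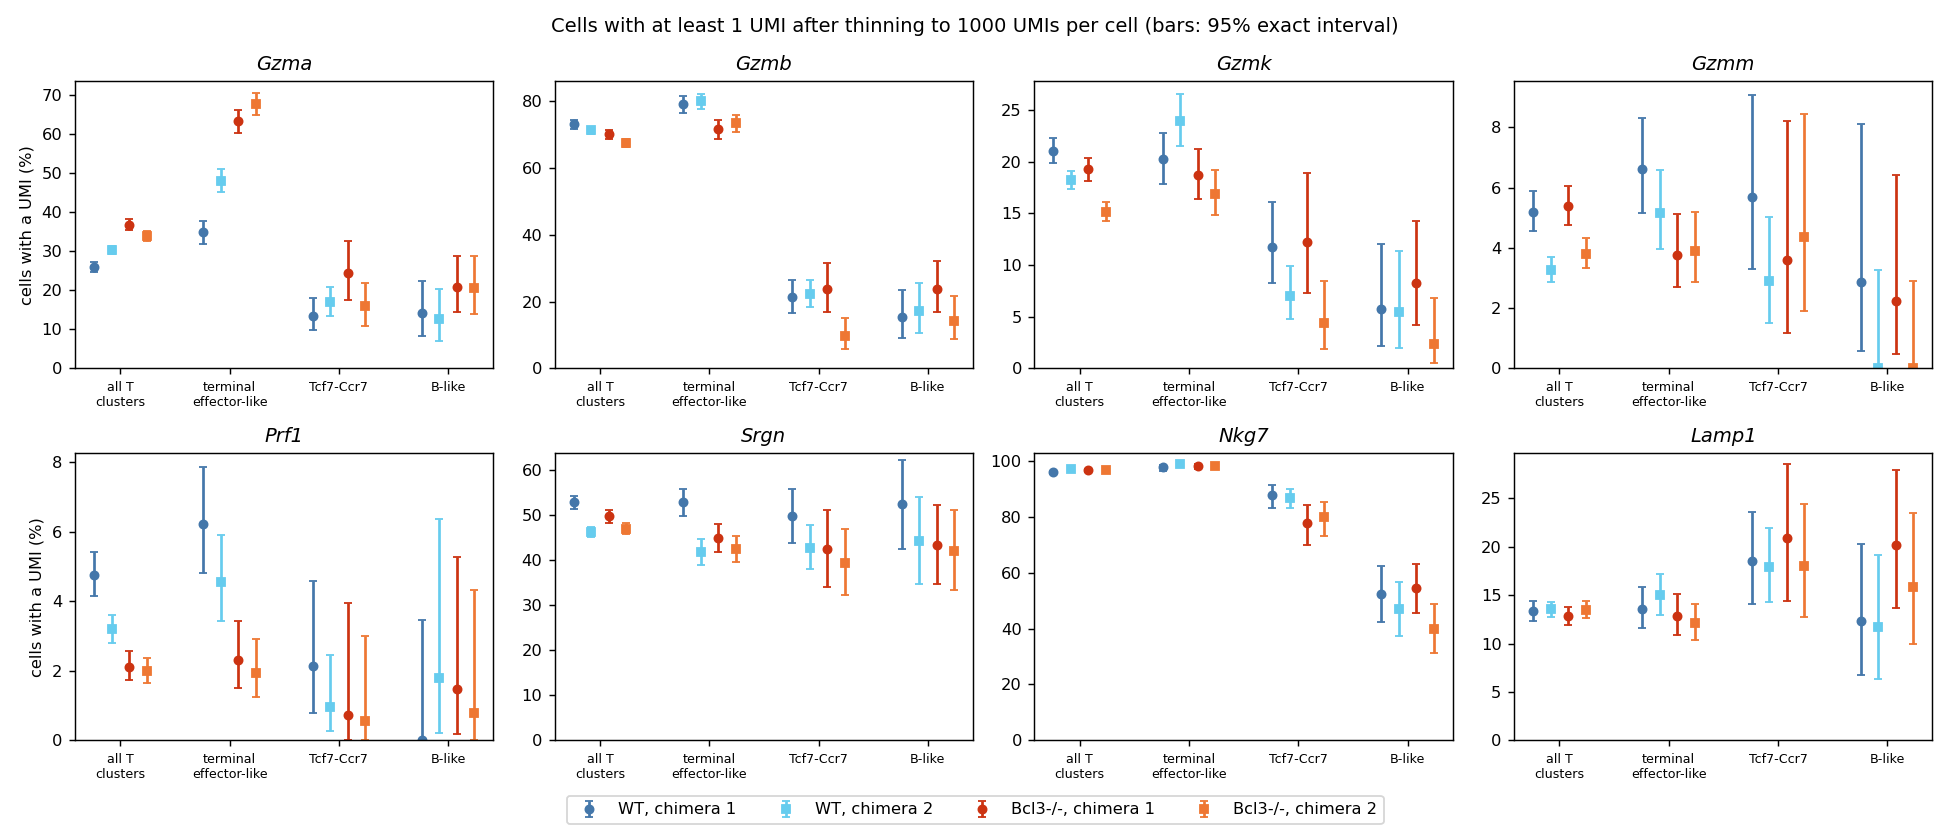
Each panel gives 1 gene, with the percent of cells with at least 1 UMI after thinning to 1000 UMIs per cell on the vertical axis, by class and library, and exact 95% intervals as bars. For Gzma in the terminal effector-like class KO1 and KO2 (63.2% and 67.7%) lie above WT1 and WT2 (34.8% and 48.0%), and for Prf1 the T cells of WT2, KO1 and KO2 (3.19%, 2.12% and 1.99%) fall inside the B-like intervals of the same libraries.

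Gzma and Gzmb were then read in the same thinned cells. In the terminal effector-like class, 27.9% of WT1, 39.4% of WT2, 46.6% of KO1 and 52.5% of KO2 cells held UMIs of both. Cells with Gzmb alone made up 51.2% and 40.5% in WT1 and WT2 and 25.0% and 20.8% in KO1 and KO2. Cells with Gzma alone made up 6.90% and 8.61% against 16.6% and 15.1%. For each of these 3 shares the Bcl3-/- libraries lay on 1 side of the WT libraries, in the class as drawn with 15 components. Cells with neither were between 11.4% and 14.0% in all 4. Were the 2 genes detected independently, 27.5%, 38.4%, 45.2% and 49.6% of WT1, WT2, KO1 and KO2 cells would hold both, which is below the measured share in each of the 4 libraries and furthest below it in KO2.

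At least 5 UMIs of Gzma in 1000 were held by 14.0% and 25.2% of terminal effector-like cells in WT1 and WT2 and by 43.3% and 49.0% in KO1 and KO2, against at most 2.24% of B-like cells. At least 5 UMIs of Gzmb were held by 7.71% and 7.89% of T cells in WT1 and WT2 and by 4.41% and 4.83% in KO1 and KO2, and by 0 B-like cells. Over all T cell clusters, cells with many copies of Gzma were thus more frequent in the Bcl3-/- libraries, and cells with many copies of Gzmb less frequent. Prf1 was seen in 1.91% to 4.11% of Gzma-positive T cells and in 2.03% to 4.98% of Gzma-negative T cells, the former being the lower share in 3 of 4 libraries.

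**Figure D4:**
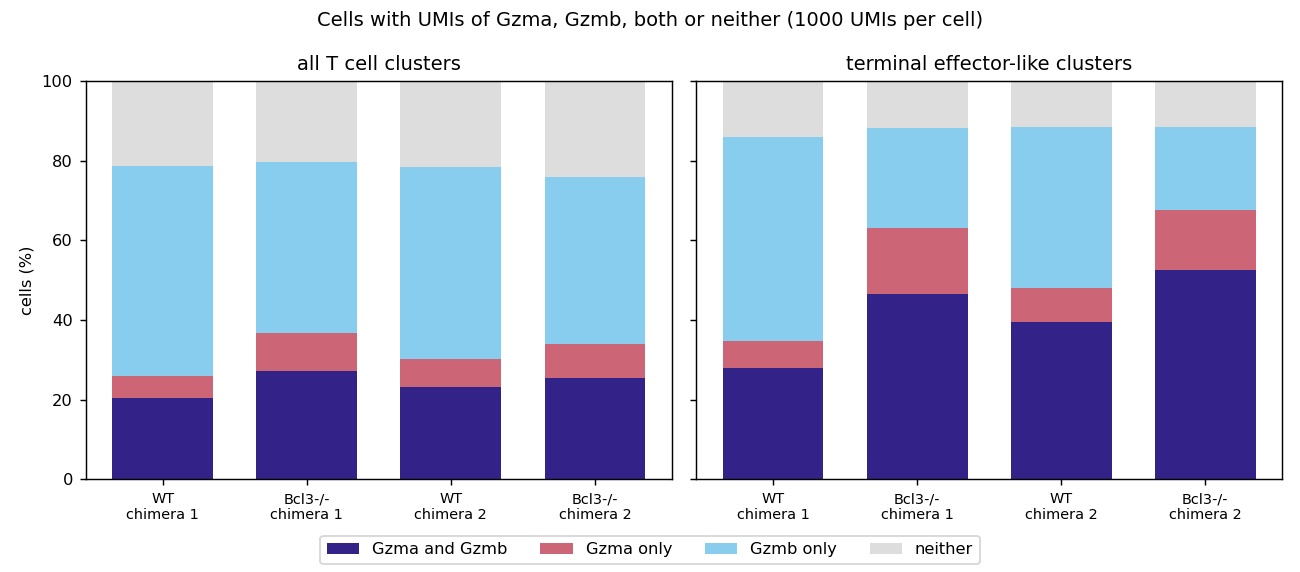
The bars stack the percent of cells with UMIs of Gzma and Gzmb, Gzma alone, Gzmb alone or neither at 1000 UMIs per cell, for each library, over all T cell clusters (left) and the terminal effector-like class (right). In the right panel cells with Gzmb alone fill 51.2% and 40.5% of the WT bars and 25.0% and 20.8% of the Bcl3-/- bars.

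Other genes of granule formation were read from lists fixed for this report. Of the 6 other granzymes, 1 had enough UMIs to be tested in the T cell clusters. This was Gzmc, at 4.55 and 5.23 CPM in WT1 and WT2 and 3.28 and 2.06 CPM in KO1 and KO2 (log2 fold change −0.87, adjusted p = 0.261 from edgeR, with the block 0.00872). Gzmd, Gzme, Gzmg and Gzmn had 0 UMIs in the T cell clusters of all 4 libraries. All 13 genes of granule release were tested, with a median log2 fold change of 0.087 beside 0.0079 over all genes, and 0 were called, against 0.288% of all genes. With the block 3 were higher and 1 was lower, against 13.7% of all genes called in that fit. The 3 were Rab27a, a GTPase that docks granules (0.36, adjusted p = 0.0210), its effector Sytl2 (0.39, adjusted p = 0.00543) and the membrane protein Cd63 (1.35, adjusted p = 0.00148). The lower gene was Stxbp2, which codes for a partner of syntaxin in granule fusion (−0.25, adjusted p = 0.0244). Cd63 had 9.68 CPM in KO1 and 1.34 to 2.06 CPM in the others, and KO1 was also the library whose T cell clusters held all 6 basophil and mast cell markers, summed to 73.6 CPM with Prss34 the most abundant (29.2 CPM). The part of those cells in the Cd63 value was not tested. Vamp8, Sytl3 and Unc13d, which are also in the release machinery, were not called in either fit.

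Of the 11 genes that process, sort or inhibit granzymes, 10 had a log2 fold change below 0 in the T cell clusters. The median of the 11 was −0.23, beside 0.0079 over all genes, and 0 were called, against 0.288% of all genes. With the block, which called 13.7% of all genes, 4 were lower and 0 higher. They were the chaperone Calr (−0.30, adjusted p = 0.00157), the granzyme B inhibitor Serpinb9 (−0.34, adjusted p = 0.000532), Serpinb6b (−0.22, adjusted p = 0.0270) and Serpina3g (−0.66, adjusted p = 0.000195). Serpina3g had 99.99 CPM in WT2, 58.1 in WT1, 59.3 in KO1 and 39.5 in KO2, so its genotypes overlapped. Those of Serpinb6b did too, with 312.9 and 223.2 CPM in WT1 and WT2 and 250.4 and 208.7 CPM in KO1 and KO2. Cst7, an inhibitor of the cathepsins that activate granzymes, and M6pr, a receptor that sorts granzymes to granules, were not called in either fit.

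Of the 5 other killing molecules 0 were called, against 0.288% of all genes. With the block (13.7% of all genes called) 1, the chemokine Ccl5, was higher (0.46, adjusted p = 0.000801). Ccl5 had 21656 and 37863 CPM in WT1 and WT2 and 35766 and 43647 CPM in KO1 and KO2, so KO1 lay below WT2. Fasl, Ifng and Tnfsf10 were not called. Of the 10 regulators of granule genes 9 had a log2 fold change above 0 (median 0.22, beside 0.0079 over all genes). Some of these were smaller than their standard errors: Bach2 (0.00053, standard error 0.26), Runx3 (0.034, 0.10), Tcf7 (0.093, 0.14) and Prdm1 (0.19, 0.21). In this list 1 was called, against 0.288% of all genes. This was Zeb2, a repressor that acts with T-bet in terminal effector cells (0.75, adjusted p = 0.0333 from edgeR). With the block 5 were higher, against 13.7% of all genes called in either direction: Zeb2, Id2 (0.91), Tbx21 (0.25), Eomes (0.50) and Nfatc1 (0.40). The genotypes overlapped for Eomes, since KO2 lay below WT1 (22.3 CPM) and only KO1 (34.3 CPM) lay above both WT libraries. Tbx21 and Eomes code for the T-box factors that drive granzyme and perforin genes. Stat4 was not called in either fit. Runx3, a further activator of these genes, had 111.8 and 118.3 CPM in WT1 and WT2 and 122.4 and 114.0 CPM in KO1 and KO2 and was not called.

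The genes whose pattern was most like that of each member were ranked by Pearson's r over 20 sums (5 classes in 4 libraries, centred within each library), among 2643 genes. These values describe points that share libraries and depth. Gzma was nearest to Cx3cr1 (r = 0.98), Snx10 (0.95) and Zeb2 (0.94), of which Cx3cr1 and Zeb2 helped to name the terminal effector-like class. Gzmb was nearest to AA467197 (0.96), Gzmk (0.96) and the cytokine gene Ifng (0.96), and Gzmk to Gzmb, Ifng (0.95) and the histone gene H2afy (0.94). Prf1 was nearest to Efhd2 (0.91), Gata3 (0.90) and Anxa1 (0.90), and Nkg7 to Sema4a (0.97), Rab7 (0.96) and Cyth4 (0.96). Among the genes most like Lamp1 were the ribosomal protein genes Rps27 (0.96) and Rps14 (0.96). Srgn reached 0.87 with Tap2, and Gzmm no more than 0.74, with Tmc6.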

How the data were processed

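UMI counts of 4 libraries of tetramer-sorted CD8 T cells were analysed, 2 per genotype. The deposited counts are raw UMIs per gene and droplet. Per the labels they come from a 10x Genomics 3′ kit, and the submitters' processing notes name bcl2fastq 2.17, Cell Ranger 2.2.0 and mm10. The authors left out clusters under 1% of a population on account of doublets, and no doublet caller was run. Cells of 500 genes or more, with up to 10% of UMIs mitochondrial, were clustered per library with Seurat 5.3.0 (2000 variable genes without the 8 members, 15 components, resolution 0.8). Here clusters under 1% of a library were left unnamed. A name needed at least 3 markers at 2-fold in at least 10% of cells, and a clause on the 10 leading genes was added after seeing the data. UMIs were summed per library and class and tested by the quasi-likelihood method of edgeR 4.0.16 (filterByExpr, TMM factors, Benjamini-Hochberg adjustment over all genes tested, threshold 0.05, no block), each state in its own fit. The interaction was fitted with library as a term. The fit with chimera as a replicate block is printed beside results whose call it changes. Same-numbered libraries come from 1 animal, and the log2 difference between the WT libraries correlated with that between the Bcl3-/- libraries at 0.18, across 6862 genes. The sizes of the classes, and Gzma in them, were also compared with 30 components. Other alternatives were DESeq2 1.42.0, other filters, classes and depths, and each library left out. Shares have exact Clopper-Pearson 95% intervals and, at 0, a limit of 3 counts, for counting error only. The test over all cells was also run on simulated counts, drawn without an effect of chimera. For 2-fold changes it recovered 76.5% with 11 false calls, and with the block 80.0% with 20. For 4-fold changes it recovered 95.5%, and with the block 95.0%, with 8 false calls each. The fits within classes and the interaction were not simulated. With 2 chimeras, p-values concern these libraries only, and the spread they rest on is in part pooled over genes. With the block they do not measure how a given gene varied between the 2 chimeras. The members, the gene lists and the marker lists were chosen with earlier results of these data known. Named from each list were the called genes and some of the highest mean CPM, and for each member the 3 genes of the highest correlation (log2 of CPM plus 10, genes of at least 50 CPM), of which 1 is not reported here. Promoter sequences are RefSeq's and were matched for all 8 members by symbol. Protein sequences were not used here.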

Additional observations from a re-analysis of the deposited data

Results flagged for a closer look

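Gzma and Gzmm, 2 of the 8 granule genes, had a genotype difference that itself differed between terminal effector-like cells and the unnamed T cell clusters of the same libraries, by the interaction term of edgeR's quasi-likelihood test, which called 0.996% of all genes. For Gzma the log2 difference of Bcl3-/- from WT was larger by 1.36 in terminal effector-like cells (standard error 0.12, adjusted p = 3.39e-09), and Gzma was higher in Bcl3-/- terminal effector-like cells in both chimeras. This value was 0.77 with the 8 genes kept for clustering and 0.42 with cells assigned from marker UMIs, both called, but −0.085 with 30 components (adjusted p = 1) and −0.13 without cells above 2 times the median UMIs (adjusted p = 0.999), so it depends on how the class is drawn. For Gzmm it was lower by an interaction of −0.89 (standard error 0.16, adjusted p = 0.00112), with Gzmm at 74.3 and 58.0 CPM in the terminal effector-like class of WT1 and WT2 and at 42.4 and 36.5 CPM in that of KO1 and KO2, but at 63.2 and 34.1 against 63.0 and 44.9 CPM in the unnamed T cell clusters. The Gzmm value was −0.72 without KO1 (adjusted p = 0.161), −0.80 with 30 components (adjusted p = 0.806) and −0.19 with cells assigned from marker UMIs (adjusted p = 0.989).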

How the results depend on the processing

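The number of genes called rested strongly on the pairing of libraries. With the replicate block it was 1116 in place of 42 over all cells, 1520 in place of 32 over the T cell clusters, 787 in place of 83 in the terminal effector-like class, 90 in place of 22 in the unnamed T cell clusters, 26 in place of 44 in the Tcf7-Ccr7 class, 268 in place of 36 in cycling cells and 92 in place of 9 in the interferon-stimulated class. With a library left out the counts ran from 40 to 228, 24 to 179, 126 to 464, 12 to 37, 53 to 89, 24 to 94 and 16 to 217 in the same order. DESeq2 called 203 genes over all cells and 172 over the T cell clusters, where no filter on low counts gave 6. Keeping the 8 genes for clustering gave 52 calls in the terminal effector-like class and 33 in the interferon-stimulated class, and classes from marker UMIs gave 37 in the former and 80 in the Tcf7-Ccr7 class. Over the T cell clusters the log2 fold change gained a call with the block for Gzma (0.73), Prf1 (−1.08) and Gzmb (−0.21) and with DESeq2 for Gzma (0.71) and Prf1 (−1.11), and Prf1 ran from −1.36 to −0.80 with a library left out. In the terminal effector-like class Gzma gained a call with the block (1.26) and with the naming rule without its added clause (1.42), and ran from 0.85 to 1.65 with a library left out. The Gzmm interaction fell short of a call with marker UMIs (−0.19) and ran from −1.21 to −0.67 with a library left out. Without cells above 2 times the median UMIs of their library, which also gave WT2 a cluster of 553 cells named from the NK list, the mean log2 ratio of Gzma to the unnamed T cell clusters was 3.54 in place of 2.60 in the terminal effector-like class and 0.012 in place of −0.75 in the interferon-stimulated class. Without thinning the difference in the share of cells was 13.3 percentage points for Gzma and −5.52 for Prf1.

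With 30 components the terminal effector-like class had 49 genes called, Gzma at −0.075 there and at 0.033 in the unnamed T cell clusters, an interaction for Gzma of −0.085, and for Gzmm of −0.80 (no longer called). Without cells above 2 times the median UMIs that class had 24 genes called, Gzma was at 0.43 in the unnamed T cell clusters, and the interactions for Gzma were −0.13 in the terminal effector-like, −0.013 in the Tcf7-Ccr7 and −0.15 in the interferon-stimulated class.

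Fold changes near 0 changed sign with a library left out. The ranges over the T cell clusters were −0.22 to 0.091 for Srgn, −0.30 to 0.39 for Gzmm, −0.089 to 0.055 for Nkg7, −0.082 to 0.0022 for Lamp1 and −0.44 to 0.043 for Gzmk. They were −0.30 to 0.042 for Srgn and −0.11 to 0.065 for Nkg7 in the terminal effector-like class, −0.35 to 0.10 for Gzma in the unnamed T cell clusters, −1.07 to 0.60 for Gzmb in the Tcf7-Ccr7 class, −0.20 to 0.074 for Gzmb in cycling cells and −0.087 to 0.60 for Gzma in the interferon-stimulated class. Gzma in the unnamed T cell clusters was also above 0 with the naming rule without its added clause (0.13) and with marker UMIs (0.017), Gzmb in the Tcf7-Ccr7 class with the 8 genes kept for clustering (0.025), and Gzma in the interferon-stimulated class was below 0 with them kept (−0.13). The causes were not tested. With a library left out, the lone library of a genotype is assumed to vary like the others. The replicate block changed no call on the 8 genes beyond those given in the report. The alternatives on naming, marker UMIs, equal class shares and, for genotype differences within classes, components and cells of many UMIs were chosen after seeing the data. At a clustering resolution of 0.4 a terminal effector-like class was found only in KO1 (901 cells) and KO2 (1114 cells) and a Tcf7-Ccr7 class in WT1, WT2 and KO2, so neither gave a comparison over the 4 libraries, and marker UMIs give no cycling or interferon-stimulated class. Depth limited Prf1: the mean share of T cells with a UMI was 2.05% in Bcl3-/- and 3.98% in WT libraries after thinning to 1000 UMIs, and 6.97% and 12.5% without thinning.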
